A study of Mus musculus with 20 samples.

Results

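The genes described here are the small proline-rich (Sprr) and late cornified envelope (Lce) families of the mouse with Crct1, Ivl, Lor and Tgm1, measured in whole kidney. Members were every gene of the deposited table whose symbol begins with Sprr or Lce and a digit, plus those 4 named genes, and silent genes were kept. They numbered 42 of 55822 genes: 17 Sprr, 21 Lce (14 Lce1, 6 Lce3 and Lce6a), Crct1, Ivl, Lor and Tgm1. The set was proposed from results of these same samples, so the difference between the groups in these 42 genes is given as a description, and nothing is read from the calls that the fit across all genes made on them.

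The study sequenced poly(A) RNA from whole kidneys of C57BL/6J mice (a standard inbred strain), all male and 8 weeks old. The series describes 20 samples in 4 groups of 5, and the control and puberulic acid groups (10 samples) are compared here. Controls received phosphate-buffered saline (PBS), and the other group received puberulic acid, a tropolone that Penicillium moulds can produce, at 1 mg per day. Both groups were dosed daily for 6 days, spent the next day without drug and were sampled on day 7. The labels name both oral dosing and intraperitoneal injection, so the route of a given mouse is not stated. The samples of the 2 groups that received lots of the supplement Choleste-Help are not analysed here. Mice were assigned to groups at random, but the labels do not say in so many words that each sample is 1 mouse, so the p-values below measure the spread between these samples.

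The cornified envelope is the cross-linked protein shell that replaces the plasma membrane of a dying keratinocyte in skin and other stratified epithelia. Involucrin (Ivl), envoplakin and periplakin form an early scaffold, loricrin (Lor), the Sprr proteins and the Lce proteins are added to it, and transglutaminases such as transglutaminase 1 (Tgm1) join them through glutamine and lysine residues. Most of the genes lie side by side in the epidermal differentiation complex, and some Sprr genes are also known to be switched on by injury in simple epithelia.

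By RefSeq gene order, 41 of the 42 members sit in 1 stretch of chromosome 3 that holds 56 annotated RefSeq genes, and Tgm1 is on chromosome 14. The sequences upstream of the annotated start sites are shown first because their letters can be read directly. Annotated starts need not be equivalent between genes. RefSeq promoter windows of 300 bases (250 before and 50 after the start, build GRCm38.p6) were found for 37 of the 42 members; Crct1, Sprr2g, Sprr2c-ps, Sprr2j-ps and Lce1f had none. The 250 bases before the start are printed below for Sprr1a, the member with the highest level per length after puberulic acid, for Sprr2f, the next in that order with a window, and for Sprr4, which was silent in every sample. Capitals mark TGANTCA, the core element bound by AP-1 (dimers of Fos and Jun family proteins), and TATAAA, the TATA box. The intervals are chr3:92485882-92486131 on the minus strand for Sprr1a, chr3:92364937-92365186 on the plus strand for Sprr2f and chr3:92500494-92500743 on the minus strand for Sprr4.
Sprr1a: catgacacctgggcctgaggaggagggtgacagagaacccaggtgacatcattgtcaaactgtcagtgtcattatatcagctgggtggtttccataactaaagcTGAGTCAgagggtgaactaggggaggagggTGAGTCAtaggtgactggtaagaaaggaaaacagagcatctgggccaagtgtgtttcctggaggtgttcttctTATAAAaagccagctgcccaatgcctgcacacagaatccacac
Sprr2f: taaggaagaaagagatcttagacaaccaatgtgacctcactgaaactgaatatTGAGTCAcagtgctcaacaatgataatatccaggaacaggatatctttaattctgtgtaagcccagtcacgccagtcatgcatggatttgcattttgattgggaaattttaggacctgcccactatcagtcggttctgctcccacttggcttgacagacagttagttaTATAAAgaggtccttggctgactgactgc
Sprr4: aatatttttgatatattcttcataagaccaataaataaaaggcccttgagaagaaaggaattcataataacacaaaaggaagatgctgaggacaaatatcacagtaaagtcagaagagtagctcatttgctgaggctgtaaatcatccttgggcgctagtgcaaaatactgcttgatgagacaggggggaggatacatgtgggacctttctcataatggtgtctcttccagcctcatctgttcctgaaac

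Sprr1a held the AP-1 letters at 2 places, beginning at positions -146 and -116 from the start. Sprr2f held them at 1 place, and the printed Sprr4 sequence held neither motif. The first letters after the printed Sprr4 sequence are ATG, so its annotated start may not be where its RNA begins. Its promoter may then lie outside this window. Searched on both strands, TGANTCA was present in 11 of the 37 member windows and in 7.8% of all 32851 RefSeq windows of the same length. It was found in both Sprr1 windows, in all 7 of the Sprr2b to Sprr2k windows, and in those of Ivl and Lor. None of the 20 Lce windows, the 3 Sprr2a windows, the Sprr3 and Sprr4 windows or the Tgm1 windows held it. The Sprr2a1 and Sprr2a2 windows end with letters close to those just before the TATA box of Sprr2b. These windows may therefore stop short of the matching region, which limits the comparison. TATAAA was present in 16 of 37 member windows and in 13.6% of all windows.

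In the 7 Sprr2 windows the first AP-1 match lay between 193 and 198 bases before the start, and the TATA box 29 bases before it. The stretch of 37 bases around that match is printed for each because genes with high and with near-zero RNA share its AP-1 letters. On the plus strand of GRCm38.p6 these are chr3:92316495-92316531 for Sprr2b, chr3:92338932-92338968 for Sprr2d, chr3:92351935-92351971 for Sprr2e, chr3:92364975-92365011 for Sprr2f, chr3:92385472-92385508 for Sprr2h, chr3:92407783-92407819 for Sprr2i and chr3:92432371-92432407 for Sprr2k. Capitals mark the AP-1 matches, of which Sprr2k holds a second at position -182.
Sprr2b: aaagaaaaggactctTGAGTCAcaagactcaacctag
Sprr2d: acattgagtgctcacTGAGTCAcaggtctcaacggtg
Sprr2e: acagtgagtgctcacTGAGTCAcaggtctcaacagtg
Sprr2f: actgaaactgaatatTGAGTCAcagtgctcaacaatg
Sprr2h: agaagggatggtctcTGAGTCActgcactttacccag
Sprr2i: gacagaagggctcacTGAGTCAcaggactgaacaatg
Sprr2k: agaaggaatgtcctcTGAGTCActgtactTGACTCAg

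After puberulic acid the mean level in CPM (normalised read counts scaled to library size, n = 5) was 17.1 CPM for Sprr2h, 15.0 CPM for Sprr2f and 5.95 CPM for Sprr2e, against 0.754 CPM for Sprr2i, 0.167 CPM for Sprr2d, 0.0245 CPM for Sprr2k and 0.0129 CPM for Sprr2b. The AP-1 letters therefore stood in windows of members at both ends of the range. Aligned without gaps, the stretches of the others differed from that of Sprr2f at 11 positions (Sprr2e) to 20 positions (Sprr2h). The stretches of Sprr2d, at 0.167 CPM, and Sprr2e, at 5.95 CPM, were nearly the same as each other. The bases around the match thus did not separate high from low members. By level, 7 of the 14 windows of members with at least 1 CPM held the AP-1 letters, and 4 of the 23 windows of the other members did.

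The other motifs searched were TGACNNNGC (an antioxidant element), GGAATG (TEAD), TTCNNNGAA (STAT) and CCACCC (Krüppel-like factors). The antioxidant letters were in 7 of 37 member windows against 12.4% of all windows, and 5 of these 7 were Lce windows. In Sprr1a the match to the antioxidant element overlaps the farther AP-1 match. TEAD letters were in 8 of 37 windows (14.7% of all windows), STAT letters in 4 of 37 (8.3%) and Krüppel-like factor letters in 8 of 37 (31.5%). These matches are descriptions of letters in a window.

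The totals of the 10 libraries lay between 18409877 and 24705587 estimated counts. CPM are relative to library sizes corrected by edgeR's trimmed mean of M values (TMM), with factors between 0.827 and 0.848 for control libraries and between 1.17 and 1.26 for treated ones. Under total counts alone the median log2 change of all tested genes was 0.56 instead of 0.05, and 78.4% instead of 52.4% of the called genes were higher. The limit set by 3 counts lay between 0.158 and 0.195 CPM for control libraries and between 0.0964 and 0.128 CPM for treated ones, and covers counting error only. The tissue label was checked on 11 kidney tubule and glomerulus markers, all with counts in every treated sample. Umod was at 3335 ± 705 CPM (SD, n = 5) in control and 3476 ± 733 CPM (SD, n = 5) with puberulic acid, while 8 of the 11 fell, beside 31.1% of all tested genes, among them Lrp2 (1332 ± 144 to 145 ± 58.7 CPM), Cdh16 (856 ± 105 to 439 ± 57.8 CPM) and the proximal tubule transporter Slc34a1 (4803 ± 914 to 117 ± 114 CPM, adjusted p = 4.86e-06 by edgeR's quasi-likelihood test). Of those 8, Slc12a1, Slc12a3 and Nphs1 lost the call under total-count scaling, where Umod and Pax8 were called higher, and Slc12a1 also lost it with DESeq2 (adjusted p = 0.0524). In bulk tissue, fewer cells of a type and less RNA per cell cannot be told apart.

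Control kidneys held almost none of this RNA apart from Tgm1. In all 5 controls 34 of the 42 members were at 0: all 21 Lce genes, 12 of 17 Sprr genes and Crct1. The members with a mean of at least 1 CPM in control were Tgm1, Sprr2a2 and Sprr1a. Tgm1 alone made up 88.8 to 94.6% of the summed control level. With puberulic acid 17 members reached a mean of 1 CPM: 7 Sprr genes, 4 Lce1 genes, 2 Lce3 genes, Crct1, Ivl, Lor and Tgm1.

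Silent genes were few. Lce1a1, Lce6a, Sprr2c-ps and Sprr4 had no count in any of the 10 samples. Of the 34 genes at 0 in controls, 30 had at least 1 count after puberulic acid. Of all members, 24 had a count in all 5 treated samples and 14 in 1 to 4 of them.

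**Figure D1:**
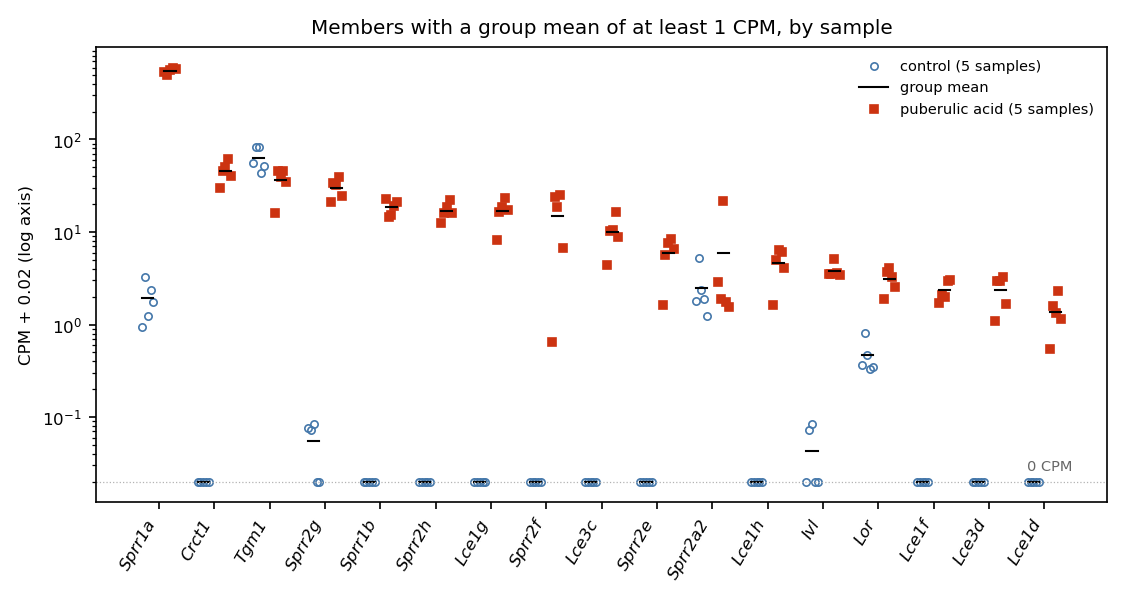
CPM plus 0.02 on a log axis for the 17 members with a group mean of at least 1 CPM, with 5 control samples (open circles), 5 puberulic acid samples (filled squares) and bars at the group means. Most control points lie on the line of 0 CPM, Sprr1a stands near 553 CPM after puberulic acid, and Tgm1 is the member whose treated mean is below its control mean.

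Sprr1a, a small proline-rich protein gene long known as an injury-induced transcript, dominated the set. Its control values were 0.913, 3.27, 1.21, 2.37 and 1.75 CPM, and its values after puberulic acid were 539, 499, 559.6, 597 and 573 CPM. Every treated sample was far above every control sample, and the treated samples differed little among themselves, with a coefficient of variation of 6.74%. The means were 1.90 ± 0.944 and 553 ± 37.3 CPM (SD, n = 5 each), a ratio of 291. Sprr1a supplied 67.6 to 80.4% of the summed member level of a treated sample.

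Sprr1b, its closest relative by name, was at 0 in all controls and at 22.5, 14.5, 15.4, 19.0 and 20.9 CPM after puberulic acid. All 5 treated samples held it, at 18.5 ± 3.44 CPM (SD, n = 5). Against a control floor of 0.180 CPM, the mean of what 3 counts amount to in the 5 libraries, this is at least 102-fold higher.

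Between these 2 genes on the chromosome lies Sprr3, and next to Sprr1a on its other side lies Sprr4. Sprr3, known for high levels in oesophageal epithelium, had counts in 1 treated sample only, at 0.111 CPM, about what 3 counts amount to there. Sprr4 was silent. The genes on either side of Sprr3 were thus at 18.5 and 553 CPM while Sprr3 and Sprr4 stayed at or under the floor.

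The Sprr2 genes fell into several patterns. Sprr2e, Sprr2f, Sprr2g and Sprr2h are adjacent, and they were the 4 of the 10 genes Sprr2b to Sprr2k that reached 1 CPM. RefSeq lists Sprr2g as a transcribed pseudogene. It had 3 counts in all controls together and 20.9, 33.6, 32.6, 39.3 and 24.3 CPM after puberulic acid, a ratio of means of 868 with a 95% counting interval of 287 to 4073.

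Sprr2h was at 12.4, 16.1, 18.6, 22.2 and 15.9 CPM after puberulic acid and at 0 in controls, at least 94.6-fold higher. Sprr2e was at 1.60, 5.58, 7.58, 8.39 and 6.59 CPM and at 0 in controls, at least 33.0-fold higher. Sprr2f was at 0 in controls and at 0.631, 23.7, 18.7, 25.1 and 6.72 CPM after puberulic acid. Sprr2f had a wide spread, the highest treated sample standing 39.7 times above the lowest, with a mean of 15.0 ± 10.8 CPM (SD, n = 5) that exceeds the control floor by at least 83.0-fold.

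Summed over Sprr2b to Sprr2k, treated samples held 35.8, 80.6, 79.6, 96.4 and 54.5 CPM, and no control exceeded 0.0636 CPM. The neighbours on both sides of the 4 high genes were low: Sprr2d was at 0.167 ± 0.179 CPM and Sprr2i at 0.754 ± 0.471 CPM (SD, n = 5 each).

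Sprr2a1, Sprr2a2 and Sprr2a3 behaved differently. Sprr2a2 was at 1.77, 5.17, 2.35, 1.87 and 1.23 CPM in control and at 2.86, 1.87, 21.6, 1.75 and 1.54 CPM after puberulic acid. The groups overlapped, and 1 treated sample, replicate 3, stood above all others. Sprr2a1 (1.82 CPM) and Sprr2a3 (1.61 CPM) were also highest in that sample. The summed level of the 3 genes was 3.03 ± 1.85 CPM in control and 6.83 ± 10.2 CPM with puberulic acid (SD, n = 5 each), a ratio of 2.25 that became 0.755 without puberulic acid replicate 3.

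The 3 transcripts are close copies. Cut into windows of 31 bases, 96.9% of the Sprr2a1 windows, 97.8% of the Sprr2a2 windows and 73.6% of the Sprr2a3 windows also occur in another gene of the GENCODE vM21 transcript set, so the split of reads among the 3 is uncertain and the sum is the safer value. Among Sprr2b to Sprr2k the shared portion was 0.8 to 31.9%. Sprr1a, Sprr1b, Crct1, Lor and Tgm1 shared no window.

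A whole kidney can carry urothelium, the lining of the renal pelvis, so 5 uroplakin genes that mark this epithelium were set beside the Sprr2a genes. Their summed level was 9.24, 11.0, 7.00, 9.16 and 3.25 CPM in control and 8.20, 2.68, 36.3, 1.30 and 4.15 CPM with puberulic acid. Replicate 3 was the highest treated sample in both sums. By contrast, Sprr2b to Sprr2k summed to 79.6 CPM in that sample, within the range of the other treated samples. The part of urothelium in the Sprr2a values was not tested.

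**Figure D2:**
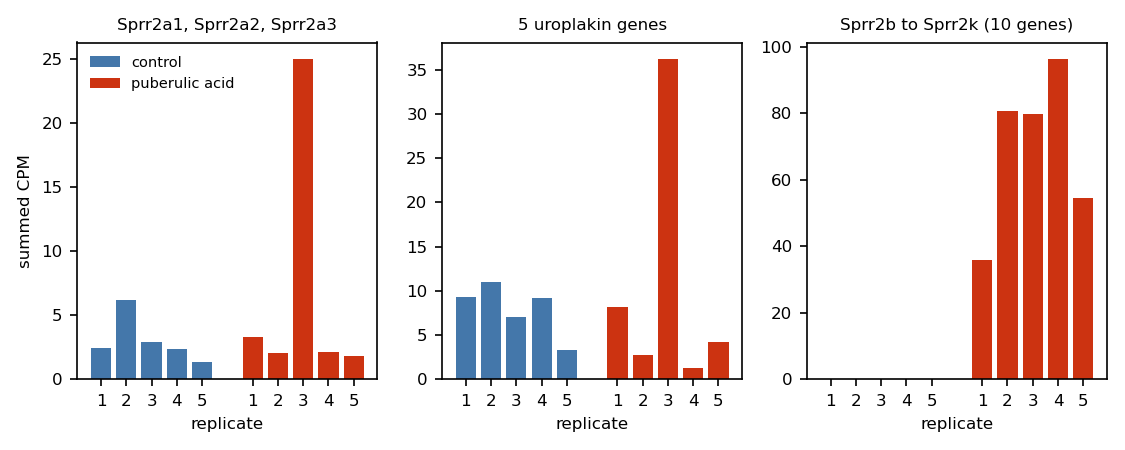
Summed CPM per sample (bars, linear axis from 0) of Sprr2a1 to Sprr2a3, of 5 uroplakin genes and of Sprr2b to Sprr2k, with control replicates on the left and puberulic acid replicates on the right of each panel. Puberulic acid replicate 3 is tallest in the first and second panels, at 25.0 and 36.3 CPM, while in the third all 5 treated samples lie between 35.8 and 96.4 CPM.

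Late cornified envelope genes were at 0 in every control. Their summed level after puberulic acid was 18.3, 39.6, 43.4, 55.5 and 36.6 CPM, with a mean of 38.7 ± 13.5 CPM (SD, n = 5) or at least 214-fold higher than that floor. Few genes supplied most of it, as 6 of the 21 reached 1 CPM.

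Lce1g, the highest of them, was at 8.09, 16.3, 18.8, 23.2 and 17.2 CPM, at least 92.6-fold higher than control. Lce1h was at 1.60, 4.98, 6.44, 5.99 and 4.08 CPM, at least 25.6-fold higher. Lce1f was at 1.71, 2.09, 1.95, 2.97 and 3.02 CPM, at least 13.0-fold higher. Lce1f, Lce1g and Lce1h are adjacent, and the genes on either side of them were low, Lce1e at 0.0879 ± 0.110 CPM and Lce1i at 0.0254 ± 0.0568 CPM (SD, n = 5 each). Lce1d, a few genes away, was at 0.520, 1.58, 1.31, 2.28 and 1.12 CPM, at least 7.56-fold higher.

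In the Lce3 group, whose human counterparts are known to respond to skin barrier damage, Lce3c was at 4.38, 10.3, 10.5, 16.3 and 8.71 CPM, at least 55.7-fold higher than the floor of 0.180 CPM. Lce3d was at 1.08, 2.90, 2.92, 3.22 and 1.64 CPM, at least 13.0-fold higher. The other Lce3 genes stayed below 1 CPM, with Lce3f at 0.378 ± 0.108 CPM and Lce3b at 0.00643 ± 0.0144 CPM (SD, n = 5 each). Lce1 transcripts share 0.9 to 58.8% and Lce3 transcripts 26.7 to 60.3% of their 31-base windows with other genes, so levels of single Lce genes are less certain than their sum.

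Crct1, the cysteine-rich C-terminal gene at the far end of the locus, ranked second after Sprr1a. It was at 0 in all controls and at 30.0, 45.4, 50.6, 61.1 and 39.8 CPM after puberulic acid. All treated samples held it, with a mean of 45.4 ± 11.6 CPM (SD, n = 5), at least 252-fold higher than the floor in controls. Lce3f and Lce1m, which flank it, were at 0.378 and 0.268 CPM.

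The RNAs of involucrin and loricrin were present at low levels. Ivl had 2 counts in all controls together and stood at 3.53, 3.49, 5.08, 3.55 and 3.41 CPM after puberulic acid, a ratio of 164 with a 95% counting interval of 44.1 to 1316. Lor was at 0.342, 0.791, 0.445, 0.312 and 0.325 CPM in control and at 1.89, 3.71, 4.11, 3.22 and 2.51 CPM after puberulic acid, a ratio of 6.97. For Lor as for Ivl, every treated sample lay above every control sample. Lor, the main envelope protein of epidermis, was thus at 3.09 ± 0.895 CPM where Sprr1a was at 553 CPM.

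Tgm1, the membrane-bound transglutaminase that cross-links the envelope, went the other way. Its values were 55.6, 82.3, 82.0, 43.7 and 51.5 CPM in control and 16.2, 45.6, 39.0, 45.1 and 34.6 CPM after puberulic acid. The groups overlapped slightly, as 2 treated samples lay above the lowest control. The means were 63.0 ± 18.0 and 36.1 ± 12.0 CPM (SD, n = 5 each), a log2 change of -0.80 that shrank to -0.30 under total-count scaling.

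The 25 members below 1 CPM in both groups comprise the 4 silent genes and 21 others whose treated means reached at most 0.754 CPM (Sprr2i). In 10 of the 21 no treated sample had more than 3 counts. For 6 of the 21 (Sprr2i, Sprr2j-ps, Lce3f, Lce1m, Lce1e and Lce3a) all 5 treated samples had counts and no control did.

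Summed over all 42 members the level was 68.5 ± 19.8 CPM in control and 775 ± 81.7 CPM after puberulic acid (SD, n = 5 each), a ratio of 11.3. Leaving out Tgm1 gave 5.44 ± 2.82 and 739 ± 73.5 CPM, a ratio of 136. Leaving out Sprr1a instead gave 66.6 ± 19.6 and 222 ± 60.9 CPM.

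For 21 members the treated range lay wholly above the control range and for the other 21 the ranges overlapped; over all 55822 genes of the table, many of them silent, the treated range lay above for 9.40%. Of the 17 members that passed the low-count filter 15 had such ranges. Among the 16266 genes that passed the low-count filter, the ranges were apart for 50.1%, with the treated range above for 26.1% and below for 24.0%. In the fit across all genes 15 members were called higher at an adjusted p under 0.05 and Tgm1 was called lower, a call lost under total-count scaling and with an absolute log2 change of at least 1, while 65.3% of all tested genes were called, 34.2% higher and 31.1% lower. The filter kept 17 members, 11 of which had no control count and so passed on their treated values alone; with no filter 24 members were called higher. Nothing is read from these member counts, since the same contrast proposed the set.

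Levels of different genes were compared per kilobase of the longest GENCODE vM21 transcript. With puberulic acid Sprr1a was at 687 ± 46.3 CPM per kb, followed by Crct1 at 63.2 ± 16.2, Sprr2g at 46.3 ± 11.4 and Sprr2f at 24.6 ± 17.7 CPM per kb (SD, n = 5 each). Sprr1a stood apart from Crct1, whereas Crct1 and Sprr2g overlapped within 1 SD. Next came Sprr2h at 22.7 ± 4.86, Sprr1b at 22.2 ± 4.14, Lce1g at 18.1 ± 5.94 and Lce3c at 17.7 ± 7.58 CPM per kb, neighbours that differed by less than their spread. The lowest of the 17 by mean were Sprr2a2 at 2.06 ± 3.06, Lce1d at 2.01 ± 0.950, Ivl at 1.98 ± 0.371 and Lor at 1.74 ± 0.503 CPM per kb, which differed by less than their spread. By median Sprr2a2, whose mean rests on replicate 3, was the lowest, at 0.654 CPM per kb against 1.81 for Lor and 1.83 for Ivl. In control the order was Tgm1 at 22.1, Sprr1a at 2.36, Sprr2a2 at 0.865 and Lor at 0.249 CPM per kb. The Sprr2a2 values rest on its longest transcript of 2867 bases, while its shortest has 722 bases. On the shorter length Sprr2a2 would leave the lowest places by mean and by median, and in control it would stand above Sprr1a.

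The treated samples varied together in part. Puberulic acid replicate 1 was the lowest of the 5 for 13 of the 17 members at 1 CPM or more, and replicate 4 was the highest for 10 of them. Sprr1a was also highest in replicate 4, at 597 CPM, but lowest in replicate 2, at 499 CPM. Sprr1b was highest in replicate 1, at 22.5 CPM. Replicate 1 also kept the largest summed level of the 11 kidney markers among treated samples, 7501 CPM against 3904 to 4891 CPM in the others and 10602 to 13656 CPM in controls. The part of that in the member values was not tested.

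**Figure D3:**
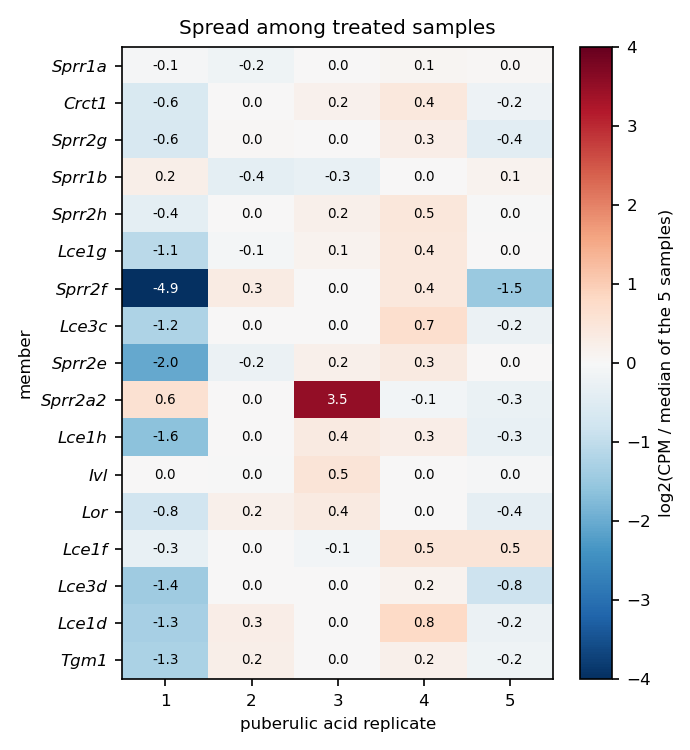
Heat map of log2 of each puberulic acid sample's CPM over the median of the 5 treated samples, for the 17 members at 1 CPM or more (rows) and replicates 1 to 5 (columns). Replicate 1 is blue in most rows and darkest for Sprr2f (0.631 CPM), replicate 3 is red for Sprr2a2 (21.6 CPM), and the Sprr1a row is nearly white.

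RNA levels were uneven along the locus. Besides the 41 members it holds 15 other annotated genes, 13 of them in the table, and 11 of the 13 were at 0 in all controls. Only Smcp and Gm35439 passed the filter. Smcp, a gene of the sperm mitochondrial capsule, fell from 3.43 ± 1.30 to 1.00 ± 0.235 CPM (SD, n = 5 each; log2 change -1.77, adjusted p = 2.31e-04 by edgeR). The long noncoding RNA Gm35439, at 1.41 ± 0.749 and 2.14 ± 0.346 CPM, was not called (adjusted p = 0.112 by edgeR, log2 change 0.59), but was under total-count scaling (adjusted p = 0.00625). Of these 2 tested neighbours edgeR called 0 higher, with 0 at an unadjusted p under 0.05 in that direction, and 1 lower, where 34.2% of all tested genes were higher and 31.1% lower; DESeq2 called 2, Prr9 and Gm4202, which edgeR's filter had removed and which were at 0.251 ± 0.141 and 0.247 ± 0.162 CPM after puberulic acid.

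The 20 annotated genes on each side of the locus were added after the member values had been seen. Of the 29 with deposited counts, 8 were tested and 6 were called higher by edgeR, against 34.2% of all tested genes. The 6 are S100a4, S100a6, S100a7a, S100a10, S100a11 and Tchh, the S100 genes encoding small calcium-binding proteins. S100a6 rose from 8.64 ± 2.15 to 286 ± 86.6 CPM (SD, n = 5 each; adjusted p = 3.38e-08), S100a11 from 121 ± 9.27 to 464 ± 100.1 CPM (adjusted p = 4.26e-07) and S100a10 from 83.3 ± 6.99 to 278 ± 30.6 CPM (adjusted p = 5.84e-08). S100a4 went from 1.97 to 16.6 CPM and S100a7a from 0.508 to 8.40 CPM (adjusted p = 3.57e-06 and 1.77e-05 by edgeR), and S100a2, not tested, was at 0.0114 and 1.40 CPM. Filaggrin (Flg, Flg2) and hornerin (Hrnr), which lie on the Crct1 side and were named after their values were seen, had means below 0.05 CPM in both groups.

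**Figure D4:**
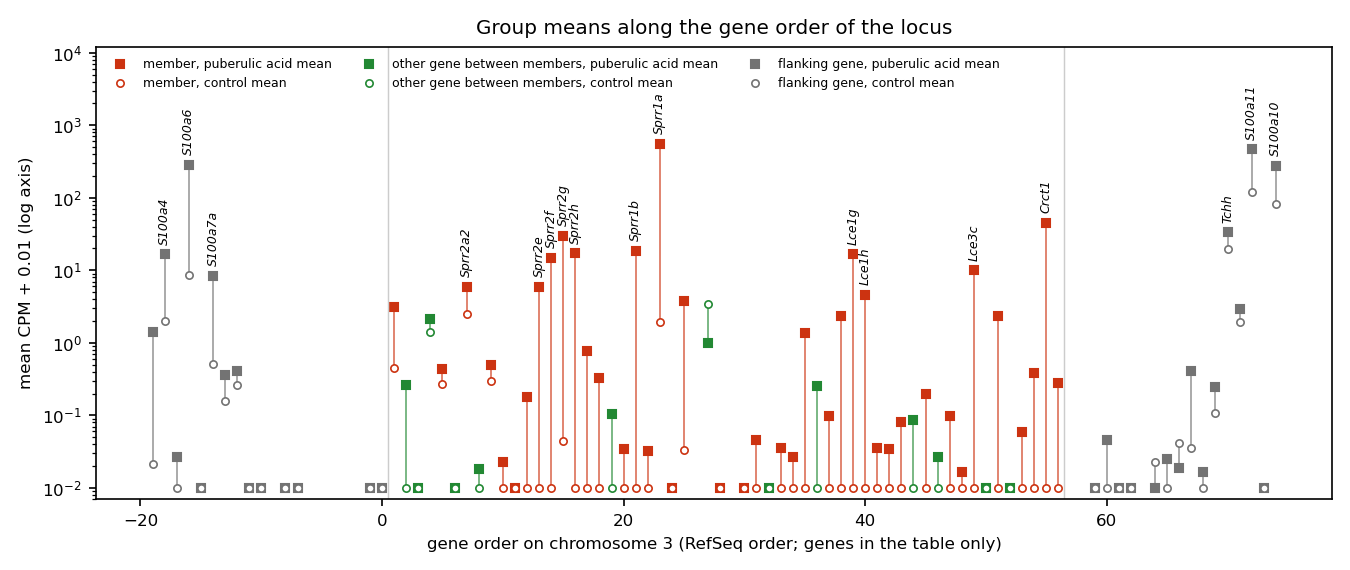
Group means in CPM plus 0.01 (log axis) against RefSeq gene order on chromosome 3 for members (red), other genes between them (green) and flanking genes (grey), open circles for control and filled squares for puberulic acid; vertical lines bound the locus. Peaks at Sprr2e to Sprr2h, Sprr1b, Sprr1a, Lce1g, Lce3c and Crct1 alternate with genes near 0.

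The rest of the cornification machinery was read from 66 other genes, of which 40 were tested: 26 were called higher and 6 lower by edgeR, where 34.2% of all tested genes were higher and 31.1% lower, and the median log2 change was 0.89 against 0.05 over all tested genes. The list was chosen with earlier results of these data known, so these counts are a description. Casp14 had no control count, and Cdsn, Fosl1, Aloxe3, Dmkn and Asprv1 had between 3 and 15 in all controls together. These genes passed the low-count filter on their treated values, so they could be called higher but hardly lower. Of the other transglutaminases Tgm2 rose from 226 ± 22.4 to 443 ± 25.9 CPM (SD, n = 5 each; log2 change 0.97, SE 0.09, adjusted p = 1.82e-06), while Tgm1 was lower. Tgm3 and Tgm5, which act with Tgm1 in epidermis, were at 0.0725 and 0.0315 CPM after puberulic acid and were not tested.

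Among the desmosome and scaffold genes 6 of 8 tested were higher and 1 was lower, against the same 34.2% and 31.1% of all tested genes. Desmoplakin (Dsp) rose from 25.4 ± 3.23 to 40.4 ± 4.99 CPM (adjusted p = 2.39e-04), plakoglobin (Jup) from 142 ± 19.3 to 172 ± 7.44 CPM (adjusted p = 0.0250) and Pkp3 from 24.4 ± 3.46 to 30.4 ± 3.28 CPM (adjusted p = 0.0283), all SD with n = 5 and by edgeR. Perp, a desmosomal membrane protein, was at 88.0 ± 8.09 and 97.4 ± 11.7 CPM (adjusted p = 0.225 by edgeR, 9.29e-05 under total counts). Chosen after their values were seen, the 2 plakins that join involucrin in the early scaffold moved apart: periplakin (Ppl) rose from 6.03 to 17.1 CPM and envoplakin (Evpl) fell from 28.2 to 13.1 CPM (adjusted p = 2.79e-05 and 7.08e-06 by edgeR). The skin cadherins Dsg1a, Dsg3, Dsc1 and Dsc3, also named afterwards, were at 0 in controls, and the highest of their treated means was 0.134 CPM (Dsg1a). Corneodesmosin (Cdsn), the skin adhesion protein of the same list, rose from 0.0363 ± 0.0552 to 0.997 ± 0.313 CPM (SD, n = 5 each; adjusted p = 3.85e-05 by edgeR) and was also named after its values were seen.

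Of the other envelope proteins 3 of 4 tested rose, beside 34.2% of all tested genes. Suprabasin (Sbsn) went from 1.37 ± 0.595 to 25.2 ± 7.22 CPM (SD, n = 5 each; log2 change 4.18, SE 0.31, adjusted p = 4.01e-07), annexin A1 (Anxa1) from 9.95 ± 0.752 to 40.7 ± 14.8 CPM (adjusted p = 2.01e-05) and dermokine (Dmkn) from 0.0854 ± 0.103 to 1.47 ± 0.635 CPM (adjusted p = 1.10e-04). Sciellin (Scel) was at 5.37 and 4.00 CPM (adjusted p = 0.348). Trichohyalin (Tchh), one of the 7 S100-fused genes, rose from 19.8 ± 2.42 to 33.7 ± 4.87 CPM (adjusted p = 1.69e-04), Tchhl1 missed the threshold at 1.92 and 2.95 CPM (adjusted p = 0.0630, but 0.00305 under total-count and 0.0351 under upper-quartile scaling), and Rptn and Crnn were at 0.399 and 0.0351 CPM after puberulic acid without being tested.

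Of the genes for the lipid layer 2 of 8 were tested, and of the proteases and inhibitors 4 of 7. The lipoxygenase Aloxe3 rose from 0.0571 ± 0.0649 to 6.78 ± 2.06 CPM (adjusted p = 3.64e-07) and Pnpla1, needed for skin ceramides, fell from 14.4 ± 1.83 to 2.46 ± 0.375 CPM (adjusted p = 8.08e-08 by edgeR). Cers3 and Elovl4 were at 0.675 and 0.210 CPM and were not tested. Casp14, the caspase of cornifying keratinocytes, was at 0 in all controls and at 5.84 ± 0.813 CPM, at least 32.4-fold higher. Asprv1, a skin aspartic protease, rose from 0.184 to 2.43 CPM and matriptase (St14) from 65.9 to 115 CPM, whereas prostasin (Prss8), which works with matriptase, fell from 403 ± 50.9 to 92.6 ± 23.1 CPM (adjusted p = 1.83e-05, 2.19e-05 and 4.43e-07 by edgeR).

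Of 19 regulators tested 11 were higher, 3 lower and 5 not called, against 34.2% higher and 31.1% lower of all tested genes. Of the 5 not called, Grhl2, Trp63, Prdm1 and Ehf were called higher under total-count scaling. Those with the highest mean in either group, in each case the treated one, were Nfe2l2 (81.9 ± 7.41 to 164 ± 19.5 CPM, adjusted p = 4.09e-06), Junb (14.2 ± 0.982 to 105 ± 20.6 CPM, adjusted p = 1.79e-08), Jun (33.4 ± 16.5 to 101 ± 18.0 CPM, adjusted p = 3.54e-04) and Cebpb (29.7 ± 13.9 to 68.4 ± 19.1 CPM, adjusted p = 0.00287), all SD with n = 5 and by edgeR. In control Cebpa and Ehf, named after their values were seen, stood above Junb and Cebpb, and neither was called (Cebpa 46.2 ± 7.08 and 39.9 ± 6.60 CPM, adjusted p = 0.184; Ehf 30.4 ± 3.76 and 33.9 ± 6.33 CPM, adjusted p = 0.344, by edgeR). Fosl1, 1 of 2 Fos family genes in the list, was named after its values were seen and rose from 0.0514 ± 0.0846 to 63.2 ± 6.41 CPM (log2 change 10.20, SE 0.33, adjusted p = 1.57e-09 by edgeR). Fosl2, the other and likewise named afterwards, rose from 11.7 ± 0.717 to 66.1 ± 9.77 CPM (log2 change 2.50, adjusted p = 1.23e-08 by edgeR). The 3 lower genes, also named afterwards, were Ovol1 (log2 change -1.65), Hopx (-0.88) and Zfp750 (-0.82), of which Hopx and Zfp750 lost the call under total-count scaling. Trp63, the master regulator of stratified epithelium and likewise named afterwards, was at 0.813 ± 0.255 and 1.26 ± 0.672 CPM (adjusted p = 0.199 by edgeR, 0.0267 under total counts).

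**Figure D5:**
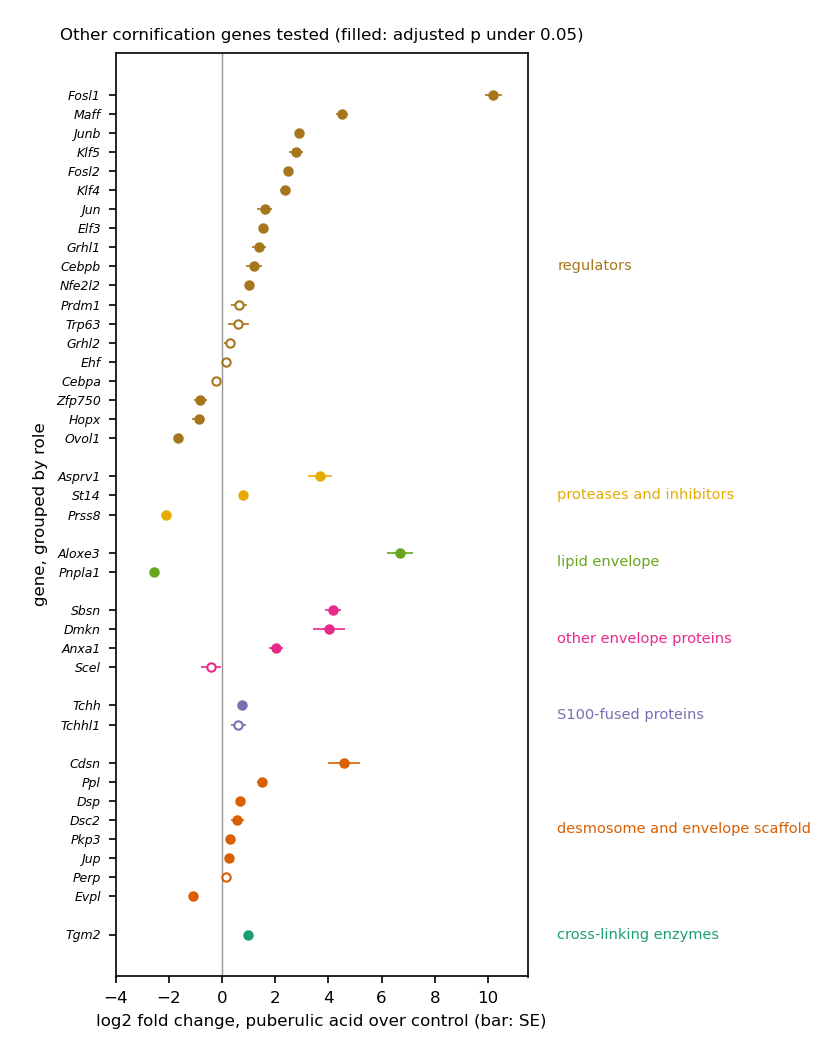
Log2 fold change of puberulic acid over control with its SE for 39 tested cornification genes outside the member set, grouped by role; filled points have an edgeR adjusted p under 0.05. Casp14, at 0 in every control, is left out, Fosl1 lies farthest right at 10.20, and Pnpla1, Prss8, Ovol1, Evpl, Hopx and Zfp750 are the filled points left of 0.

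Markers of other epithelia that the samples could hold were read next. Of 10 epidermal keratinocyte markers 3 were tested and 1 was called higher: Krt5, a basal keratin, rose from 0.278 ± 0.150 to 19.5 ± 3.75 CPM (SD, n = 5 each; adjusted p = 1.55e-08 by edgeR). This is beside 34.2% of all tested genes. Krt10 was at 7.52 ± 2.50 and 6.89 ± 1.08 CPM (adjusted p = 0.630) and Krt15 at 0.542 ± 0.343 and 0.594 ± 0.391 CPM (adjusted p = 0.872, both by edgeR), and Col17a1, at 0.151 ± 0.232 and 0.705 ± 0.326 CPM, was not tested. Of the defining keratins, named after their values were seen, Krt14 was at 0.105 and 0.207 CPM, Krt1 at 0.140 and 0.0757 CPM and Krt2 at 0 in every sample. The summed level of the 10 was 5.00 to 12.3 CPM in controls and 23.5 to 34.0 CPM in treated samples. Most of this difference was Krt5, with means of 0.278 and 19.5 CPM.

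Of 7 squamous mucosa and stressed keratinocyte markers Krt16 alone was tested, at 0 in controls and 1.87 ± 0.956 CPM after puberulic acid (at least 10.4-fold higher), while Krt17, Krt6a and Krt78 were at 0.445, 0.171 and 0.0649 CPM. With no control count, Krt16 passed the low-count filter on its treated values alone and could only be called higher. The 7 summed to 0.0377 ± 0.0559 CPM in controls and 2.71 ± 1.16 CPM in treated samples (SD, n = 5 each). Of 8 urothelial markers Krt20 rose from 0.200 ± 0.0805 to 415 ± 92.6 CPM (adjusted p = 3.15e-10) and Snx31 fell from 25.0 ± 11.1 to 2.84 ± 1.47 CPM (adjusted p = 5.75e-05), while the other 6 were not called by edgeR, among them Psca at 2.86 ± 2.64 and 6.35 ± 3.55 CPM (adjusted p = 0.102) and Upk1a at 2.14 ± 0.825 and 3.34 ± 3.96 CPM (adjusted p = 0.397). Psca was called higher under total-count scaling (adjusted p = 0.0217). Without Krt20 the urothelial markers summed to 13.5 to 56.2 CPM in controls and 8.26 to 52.9 CPM in treated samples. DESeq2 called 8 of these 25 markers higher instead of 3, adding Col17a1, Lgals7, Dsg1a, Krt6a and Krt17, whose treated means were all below 1 CPM. Over all genes DESeq2 called 12163, higher or lower, against 10622 by edgeR. The part of these cell types in the member levels was not tested.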

How the data were processed

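The deposited table holds estimated counts per gene that the authors made, per the submitters' processing notes, with fastp 0.22.0, Salmon 1.10.3 and the build GRCm39 (FastQC 0.12.1 and MultiQC 1.28 for quality, DESeq2 also named); libraries were poly(A)-selected and strand-specific per the labels. Counts were rounded. Columns were matched to samples by name; 10 columns whose names do not match the labels were not used. Members and lists were chosen with earlier results of these data known. Members with a mean of at least 1 CPM are given by sample; of the other lists, the 4 genes per role with the largest mean CPM in either group and every transglutaminase are named, with the few others marked as chosen after their values were seen.

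Genes were filtered with filterByExpr, scaled by TMM and tested with edgeR 4.0.16 (quasi-likelihood, R 4.3.3), with Benjamini-Hochberg adjustment over 16266 genes; 65.3% (10622) were called at an adjusted p under 0.05. On simulated counts with 200 changed genes, 100% were recovered and 4.31% of calls were unchanged genes. DESeq2 1.42.0, other scalings and filters, a replicate block and left-out samples were tried. A gene symbol was found for 51344 of 55822 genes, holding 99.29% of counts. Gene order and promoter windows come from RefSeq on GRCm38.p6 and transcript lengths from GENCODE vM21, an older build than the deposited one, so they served for names, order, length and sequence only. A gene at 0 in controls was set against 3 counts per library.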

Additional observations from a re-analysis of the deposited data

Results flagged for a closer look

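In each group of 5 samples, the gap between an extreme sample and its nearest neighbour was divided by the group's range and compared with Dixon's 95% critical value of 0.71. Of 27 groups of values searched 5 exceeded it. Chance flags about 1 in 20 groups, and the groups are not independent, since the summed Sprr2a level includes Sprr2a2. Sprr2a2 stood out at 21.6 CPM in puberulic acid replicate 3, with the next sample at 2.86 CPM (gap 0.934 of the range). The summed Sprr2a level of the same sample was 25.0 CPM against 3.27 CPM in the next (0.935). The 5 uroplakins summed to 36.3 CPM in that sample against 8.20 CPM (0.803). Ivl was highest there too, at 5.08 CPM against 3.55 CPM (0.917). In control replicate 2 Sprr2a2 was at 5.17 CPM against 2.35 CPM (0.715).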

How the results depend on the processing

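The direction was fixed for the 11 members that passed the low-count filter with no control count. The size of their fitted changes depends on the prior count (Crct1, 12.92, became 8.92 with a prior count of 2). Tgm1 lost its call under total-count scaling (log2 change -0.30), and Sprr2a2 turned from 1.24 to -0.32 without puberulic acid replicate 3 and ranged up to 1.69 without control replicate 2. The summed Sprr2a ratio, added after seeing the data, was 2.25, turned to 0.755 without that sample and ranged from 0.755 to 3.04 over left-out samples. The summed member ratio of 11.3 became 16.1 under total-count scaling and 12.9 by medians, and was 10.6 to 12.4 with 1 sample left out. Members called higher numbered 15, against 24 with no filter on low counts, 13 with a filter of 1 CPM in 5 samples and 20 with DESeq2. Members called lower numbered 1, and 0 under total-count scaling or with an absolute log2 change of at least 1. That fold threshold left 5264 of 10622 called genes, and left-out samples gave 10104 to 11108. Locus neighbours called higher were 0, against 1 under total-count scaling, 3 with no filter, 2 with DESeq2 and 0 to 1 with a sample left out (1 without control replicate 1). Epidermal, squamous and urothelial markers called higher were 3, against 8 with no filter, 8 with DESeq2 and 3 to 6 with a sample left out (6 without control replicate 1, 5 without control replicate 2 or puberulic acid replicate 1). Apart from fewer or more genes tested, the cause was not tested.

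Controls and treated samples share replicate numbers only as names: deviations of same-numbered samples correlated between -0.172 and 0.039. With the replicate number as a block 10325 genes were called, and the same 15 members were called higher, 1 lower. Depth limits the members near 0, where 3 counts amount to 0.0964 to 0.195 CPM.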
